A study of Drosophila melanogaster with 2 samples.

Results

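The heat shock protein genes Hsp22, Hsp23, Hsp26, Hsp27, Hsp67Ba, Hsp67Bb, Hsp67Bc, Hsp68 and Hsp83, with Hsf, the gene of the heat shock transcription factor, make up a set of 10 of the 13945 protein-coding genes on the main chromosome arms. The 10 genes were selected by name after earlier results of these data were known, because stc peaks had been seen at some of them. Their peaks are therefore given as a description, with no test. The peaks come from chromatin immunoprecipitation and sequencing (ChIP-seq) of shuttle craft (stc), a relative of human NFX1 with zinc fingers, in whole Drosophila melanogaster embryos of 0 to 24 h. The strain carries an insertion at stc that gives an stc-eGFP fusion protein, the precipitation used an antibody against GFP, and the labels name no heat treatment. There was 1 group of 2 biological replicates, so no conditions are compared. Whole embryos mix many cell types, and a peak does not say in which of them the contact occurred. A control experiment named by the labels was not analysed here, so the background at these genes was not measured.

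Cells make heat shock proteins to keep other proteins folded. The small heat shock proteins hold unfolded proteins without using ATP, while Hsp68 belongs to the Hsp70 family and Hsp83 is the fly Hsp90, an abundant chaperone that unstressed cells also make. Hsf forms trimers under stress and binds heat shock elements, which are repeats of the bases GAA and its reverse complement TTC, a pair of bases apart, near the starts of its target genes. The small heat shock genes of Drosophila form a cluster at cytological position 67B, and Hsp22, Hsp23, Hsp26 and Hsp27 are also known to be expressed during normal development.

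The sequences that carry the peaks, and those of genes that lacked one at the start, are shown first, since the results set the peaks against the heat shock elements in them. The first lines give the 250 bases before the start of each gene, read 5′ to 3′ on the strand of the gene, from the RefSeq Release 6 genome, of which dm6 is the browser name. Capitals mark every match to GAANNTTC or TTCNNGAA, the shortest pairs of heat shock element units. The upstream stretches lie at chr3L:9383813-9384062 (Hsp27, plus strand), chr3L:9377428-9377677 (Hsp26, minus strand), chr3L:9381632-9381881 (Hsp23, plus strand) and chr3R:24057311-24057560 (Hsp68, minus strand). The summit of the Hsp27 peak lies 150 bases before the end of its line and that of the Hsp26 peak 115 bases before the end of its line. The last 3 lines come from peaks inside genes, on the plus strand. They are the 101 bases centred on the summit in the Hsp83 intron (chr3L:3194228-3194328), 30 bases that hold the single exact match at the Hsp83 promoter (chr3L:3193137-3193166), and 30 bases at the summit in Hsp22 (chr3L:9373546-9373575).
Hsp27 upstream: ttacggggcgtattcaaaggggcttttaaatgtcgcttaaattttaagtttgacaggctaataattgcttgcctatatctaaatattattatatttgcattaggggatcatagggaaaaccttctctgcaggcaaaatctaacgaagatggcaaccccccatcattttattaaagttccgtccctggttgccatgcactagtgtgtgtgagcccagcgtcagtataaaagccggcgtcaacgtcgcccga
Hsp26 upstream: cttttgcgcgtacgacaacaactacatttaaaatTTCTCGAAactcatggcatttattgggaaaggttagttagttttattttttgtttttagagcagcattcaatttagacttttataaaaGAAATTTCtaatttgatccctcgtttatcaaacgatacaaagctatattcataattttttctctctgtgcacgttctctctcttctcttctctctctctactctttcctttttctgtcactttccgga
Hsp23 upstream: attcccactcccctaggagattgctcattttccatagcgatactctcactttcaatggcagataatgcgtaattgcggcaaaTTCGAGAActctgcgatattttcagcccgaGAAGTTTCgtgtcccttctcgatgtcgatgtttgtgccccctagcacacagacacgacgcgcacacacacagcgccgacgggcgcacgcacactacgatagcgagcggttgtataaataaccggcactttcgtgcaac
Hsp68 upstream: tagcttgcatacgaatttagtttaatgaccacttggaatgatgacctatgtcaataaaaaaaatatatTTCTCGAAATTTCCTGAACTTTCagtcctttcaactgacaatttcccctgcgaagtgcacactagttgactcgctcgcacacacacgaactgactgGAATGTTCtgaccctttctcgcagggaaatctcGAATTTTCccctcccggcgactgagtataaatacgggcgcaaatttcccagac
Hsp83 intron summit: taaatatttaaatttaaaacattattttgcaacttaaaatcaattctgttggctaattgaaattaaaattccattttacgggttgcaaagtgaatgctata
Hsp83 promoter unit: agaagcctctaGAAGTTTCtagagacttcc
Hsp22 summit: tattaagctgtatttttcatatatctcaag

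A gene was counted as having a peak when a summit lay in its body or in the 2 kb on either side. By that rule 8 of the 10 genes had a peak in the conservative list, the list of 3831 peaks kept between the replicates. Among all protein-coding genes the share was 27.0% (3768 of 13945), and it was 20.8% among the genes no longer than the longest of the 10. All 7 genes of the small heat shock cluster were among the 8, with Hsp83, and neither Hsp68 nor Hsf was. The 8 genes rested on only 5 peaks, because genes of the cluster lie so close that their windows overlap. The count therefore does not stand for 8 separate contacts. At the starts themselves, a summit lay within 250 bp of an annotated transcription start site (TSS) of 3 of the 10 genes, Hsp26, Hsp27 and Hsp83, against 10.2% of protein-coding genes (1429 of 13945). In the list of replicate 1 (2782 peaks) the same count by body and flank was 8, against a background of 22.2%. Replicate 2 (3806 peaks) gave 9, against 27.2%, and the larger list of the series (5084 peaks) gave 9, against 32.8%. The added gene was Hsp68 in replicate 2 and Hsf in the larger list, each through a peak at the start of a neighbouring gene.

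The strongest peak lay in front of Hsp27, whose product is a small heat shock protein found in the nucleus. The peak spanned chr3L:9383786-9384033, and its summit lay 150 bp upstream of the only annotated TSS of Hsp27 (FBgn0001226). The signal of the peak, the authors' value with no stated scaling, was 674.6 in the conservative list, rank 90 of 3831. In the replicates' own lists the signal was 360.7 in replicate 1 (rank 76) and 313.8 in replicate 2 (rank 109). It stood above 97.3% of the peaks of replicate 1 and 97.1% of those of replicate 2. The summits of the lists lay within 6 bp of one another, and the sequence there is intergenic. Hsp23 (FBgn0001224), a cytosolic small heat shock gene just upstream, was counted through this peak alone, which lies 1148 bp beyond its 3′ end. The start of Hsp23 itself had no peak in any of the 4 lists.

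The second peak of the cluster lay in front of Hsp26 (FBgn0001225), another small heat shock gene. It spanned chr3L:9377458-9377649, in intergenic sequence, with the summit 115 bp upstream of the outer of the gene's 2 annotated TSSs. Its signal was 339.0 in the conservative list (rank 372), 120.6 in replicate 1 (rank 654) and 212.6 in replicate 2 (rank 247). It stood above 76.5% of the peaks of replicate 1 and 93.5% of those of replicate 2. The ratio of its replicate 2 signal to its replicate 1 signal was 1.76, the highest of the 5 peaks and above that of 95.1% of the 2037 peaks found in both replicates, for which the median ratio was 1.10 and the quartiles 0.904 and 1.32. The Hsp27 peak had the opposite order, with a ratio of 0.870, the only ratio under 1 among the 5 peaks. Hsp67Ba (FBgn0001227) was counted through the Hsp26 peak, which lies 260 bp beyond its 3′ end, and its own start had no peak in any list.

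The third peak of the cluster lay inside Hsp22 and Hsp67Bb, which share transcripts. Hsp22 (FBgn0001223) encodes a mitochondrial small heat shock protein, and Hsp67Bb, annotated as CG4456 (FBgn0001228), encodes a protein with a rhodanese-like domain. The peak spanned chr3L:9373386-9373735, and the annotation places its summit in the 5′ untranslated region (UTR) of the longer Hsp22 transcripts and in the 3′ UTR of CG4456. The nearest TSS was the inner one of Hsp22, 436 bp downstream of the summit. The signal was 188.8 in the conservative list (rank 1051), 80.1 in replicate 1 (rank 1281) and 104.1 in replicate 2 (rank 1000), the weakest of the 5 peaks in each list. It stood above 54.0% of the peaks of replicate 1 and 73.7% of those of replicate 2. The medians of those lists were 75.8 and 72.7. Hsp67Bc (FBgn0001229), a small heat shock gene on the opposite strand whose product is related in function to human HSPB8, was counted through this peak at a distance of 1064 bp upstream of its start.

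**Figure D1:**
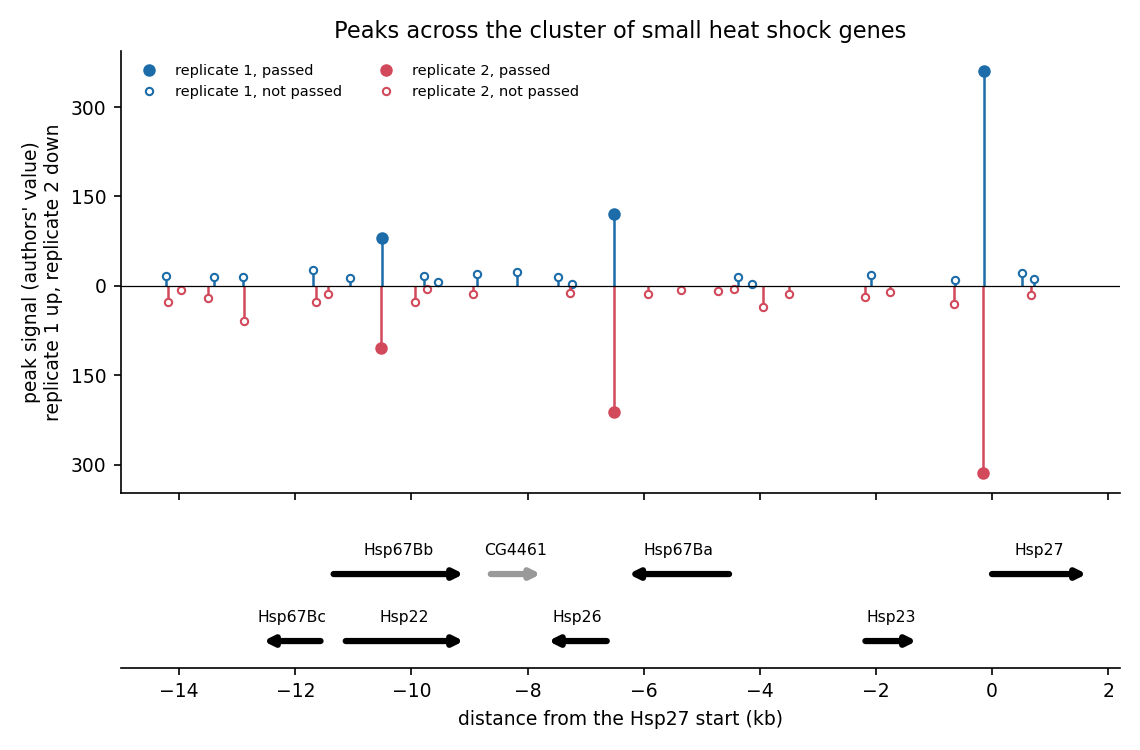
Peak signal (vertical axis, the authors' value) at the summits of all ranked peaks across the small heat shock cluster, by distance from the Hsp27 start in kb, with replicate 1 drawn upward and replicate 2 downward. Filled points passed the authors' threshold and open points did not, and arrows below give the genes with their direction (CG4461 in grey is not among the 10). The 3 filled peaks occur at the same places in both replicates, and the highest, before Hsp27, reaches 360.7 and 313.8.

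The 8 protein-coding genes of the cluster, the 7 above and CG4461, a further small heat shock gene, lie within 14.2 kb. With the flanks the stretch measured 18.2 kb and held 3 peaks, or 0.165 per kb, against 0.0286 per kb over the chromosome arms. The ratio of the densities was 5.77, and it was 4.34 in the larger list, 7.98 in replicate 1 and 5.80 in replicate 2, each with 3 peaks in the stretch. Of 7360 stretches of the same length along the arms, 382 (5.19%) held at least 3 peaks of the conservative list. That share was 8.22% in the larger list, 2.70% in replicate 1 and 5.42% in replicate 2. These densities are a description only, since the genes were chosen with their peaks known. All 3 peaks had an IDR, the irreproducible discovery rate that the authors used as threshold, of 0.000109 or less in the conservative list.

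Across the cluster the peaks under the threshold had lower signals than the 3 peaks that passed. The ranked lists hold peaks that passed the threshold and peaks that did not, and no source used here says whether they hold every peak found. The conservative ranked list held 109045 peaks and the larger one 121327. Absence from a ranked list therefore does not show that no peak was found there. Replicate 1 had 20 ranked peaks in the stretch, of which the highest that failed had a signal of 27.2, and replicate 2 had 23, of which the highest that failed had 59.3. The weakest peak that passed was 2.95 times the highest that failed in replicate 1 and 1.76 times in replicate 2. The highest that failed in replicate 2 lay 58 bp from the start of Fdx1, a ferredoxin gene beside the cluster, with an IDR of 0.0187. It stood above 96.9% of the ranked peaks of replicate 2, and above the 47.4 of a peak upstream of Hsp68 that passed there. In the larger ranked list a peak at the Fdx1 start had a signal of 71.8 and an IDR of 0.0128, just over the 0.01 that no passed peak exceeded. The conservative ranked list gave that peak an IDR of 0.693. At the starts of Hsp67Bc and Hsp22 the nearest ranked peaks had signals of 26.7 and 27.0 in replicate 2, with IDRs of 0.670 and 0.187. In the ranked lists of the series the peak at the Hsp67Bc start had a signal of 56.7. Its IDR was 0.0756 in the conservative ranked list and 0.640 in the larger one.

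Hsp83, the gene of the fly Hsp90, was the member outside the cluster with peaks, and it had 2 of them. Hsp83 (FBgn0001233) lies on the plus strand of 3L from 3192969 to 3197059 and has TSSs at 3192969 and 3193216. The first peak spanned chr3L:3193017-3193212, between the TSSs, and its summit lay 92 bp upstream of the inner TSS, in the 5′ UTR of transcripts from the outer one. Its signal was 436.2 in the conservative list (rank 213), 163.5 in replicate 1 (rank 368) and 257.3 in replicate 2 (rank 171). The second peak, chr3L:3194162-3194354, lay in the first intron with the summit 1062 bp downstream of the inner TSS. Its signal was 360.5 in the conservative list (rank 325), 159.8 in replicate 1 (rank 385) and 201.1 in replicate 2 (rank 284). The promoter peak was the higher of the pair in every list, by 3.7 units of signal in replicate 1 and by 56.2 in replicate 2. Both stood far above the other ranked peaks around the gene, of which the highest had a signal of 20.04 in replicate 1 and 44.2 in replicate 2.

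**Figure D2:**
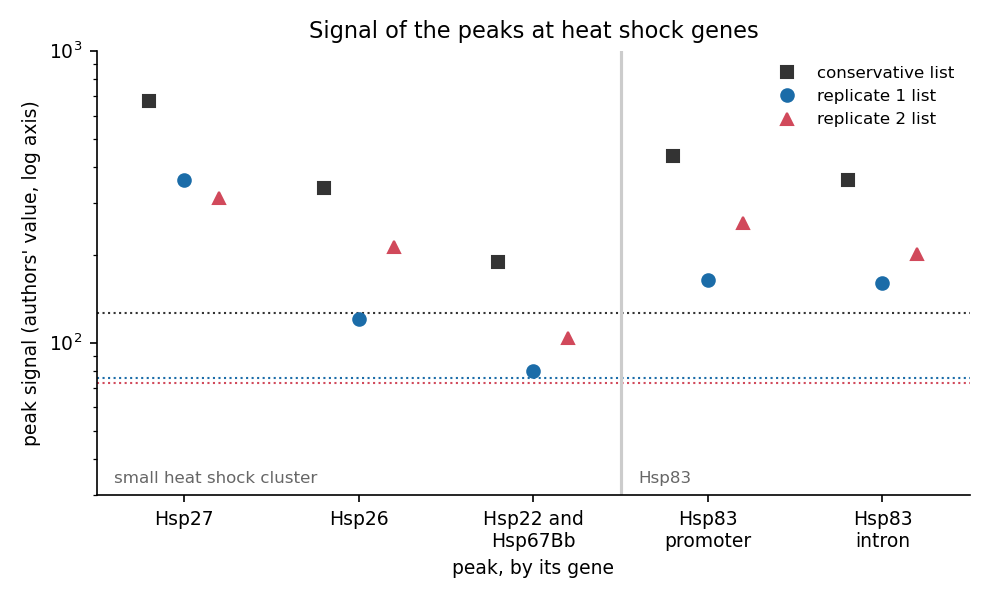
Signal of the 5 peaks (log axis, the authors' value) in the conservative list (squares), replicate 1 (circles) and replicate 2 (triangles), with the median of each list as a dotted line of the same colour. The Hsp27 peak is the highest in each list and the Hsp22 peak the lowest, close to the median of 75.8 in replicate 1.

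Hsp68, an inducible gene of the Hsp70 family, had no peak of its own in any thresholded list. The gene (FBgn0001230) lies on the minus strand of 3R from 24055080 to 24057310. The peak that brought it into the count of replicate 2 spanned chr3R:24058095-24058424, with a signal of 47.4 (rank 3425 of 3806) and an IDR of 0.00915, just under the threshold. Its summit lay 950 bp upstream of Hsp68 but 27 bp upstream of SMC1, a gene of the cohesin complex on the other strand. Replicate 1 had no ranked peak there. The larger ranked list had one with a signal of 63.4 that failed, with an IDR of 0.0137. At the Hsp68 start itself the nearest ranked peak was 167 bp upstream, in replicate 2, with a signal of 38.9 and an IDR of 0.0418. In replicate 1 no ranked peak lay upstream of Hsp68, and the highest in its window had a signal of 14.1, close to the median of 13.4 over all ranked peaks of that replicate.

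Hsf itself had no peak at its start either. The gene (FBgn0001222) lies on the minus strand of 2R from 18130303 to 18134634 with 1 annotated TSS. The peak in its window in the larger list spanned chr2R:18128376-18128725, with a signal of 69.5, rank 4413 of 5084 and an IDR of 0.00417. Its summit lay 57 bp inside Dlip3, the gene of a Dorsal-interacting protein on the opposite strand that runs toward the 3′ end of Hsf, and 6083 bp downstream of the Hsf start. The conservative ranked list held the same peak with an IDR of 0.0492, and both replicates had weaker ones there that failed, with signals of 24.2 in replicate 1 and 38.6 in replicate 2. Close to the Hsf start the ranked peaks had signals of 12.8 and 7.82 in replicate 1 and 30.03 in replicate 2, all of which failed with IDRs of 0.181 or more.

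**Figure D3:**
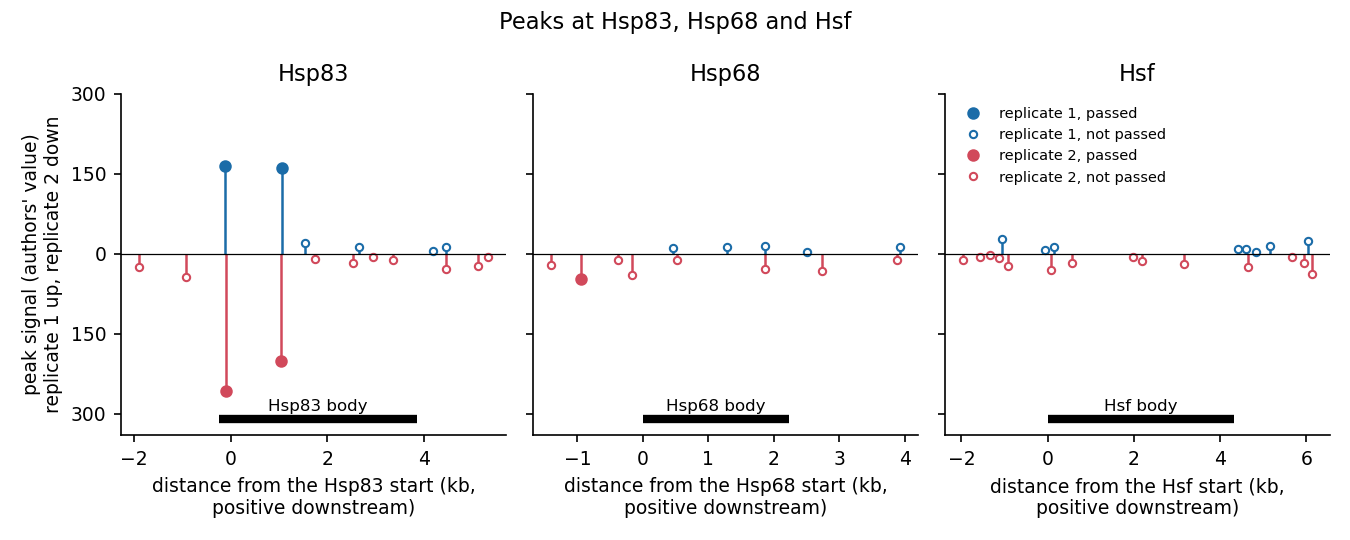
Peak signal (the authors' value) at the summits of ranked peaks around Hsp83, Hsp68 and Hsf by distance from the start of each gene in kb (the inner start for Hsp83), with replicate 1 upward and replicate 2 downward on 1 scale. Filled points passed the threshold, and black bars give the gene bodies. Hsp83 has 2 filled peaks in both replicates, while the only filled point beside them is that of 47.4 upstream of Hsp68 in replicate 2.

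Set side by side, a larger share of the clustered genes than of the other genes had a peak in their window. In the cluster 7 of 7 genes had a peak in their window from 3 peaks, in all 4 lists. Among Hsp68, Hsp83 and Hsf the count was 1 of 3 from 2 peaks in the conservative list and in replicate 1, and 2 of 3 in replicate 2 and in the larger list. A summit within 250 bp of a TSS was found for 2 of 7 clustered genes and 1 of 3 others, in each of the 4 lists. Signals of the cluster peaks ran from 188.8 to 674.6 and those of the Hsp83 peaks from 360.5 to 436.2 in the conservative list. The ranges overlapped, so neither set was the stronger throughout. All 5 peaks overlapped a peak in the own lists of both replicates by at least 50% of the shorter peak. Over the whole conservative list 2037 of 3831 peaks (53.2%) did. That list also holds many weaker peaks than these, which ranked from 90 to 1051 by signal. In each of the 5 peaks the nearest TSS of a protein-coding gene belonged to a member, though not always to the gene counted. Hsp23, Hsp67Ba, Hsp67Bb and Hsp67Bc were counted through peaks nearest to the start of another member. Likewise the single peaks in the windows of Hsp68 and Hsf lay nearest to SMC1 and Dlip3.

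The start with the most matches to the 2 heat shock element words, that of Hsp68, had no peak in any thresholded list. The start with the strongest peak, that of Hsp27, had no match. Only exact matches were counted, so a heat shock element with a mismatch was missed. The words were searched on both strands from 250 bp before to 50 bp after each annotated start of a protein-coding gene. GAANNTTC occurred at a start of 7 of the 10 genes, 5 clustered and 2 others, and at a start of 11.97% of all 13945 protein-coding genes. Counted by start, it was at 8 of their 14 starts and at 9.34% of all 19607. TTCNNGAA occurred at 3 of the 10 genes (Hsp23, Hsp26 and Hsp68) and at 9.96% of all genes. The Hsp68 start held 6 matches, 4 of the first word and 2 of the second, of which 4 overlapped in a chain from 182 to 160 bp upstream. It was the only start of the 19607 with 6 or more. A ranked peak of replicate 2 that failed, with a signal of 38.9 and an IDR of 0.0418, had its summit 167 bp upstream, within that chain. Replicate 1 had no ranked peak upstream of Hsp68. Runs of 3 alternating units were found at Hsp68 alone among the 10 genes and at 0.567% of all genes. The Hsp27 start, in contrast, had no match to either word, and its nearest was 338 bp upstream in the wider window of 500 bp before to 100 bp after. The starts of Hsp67Ba and Hsf had no match in the narrower window.

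**Figure D4:**
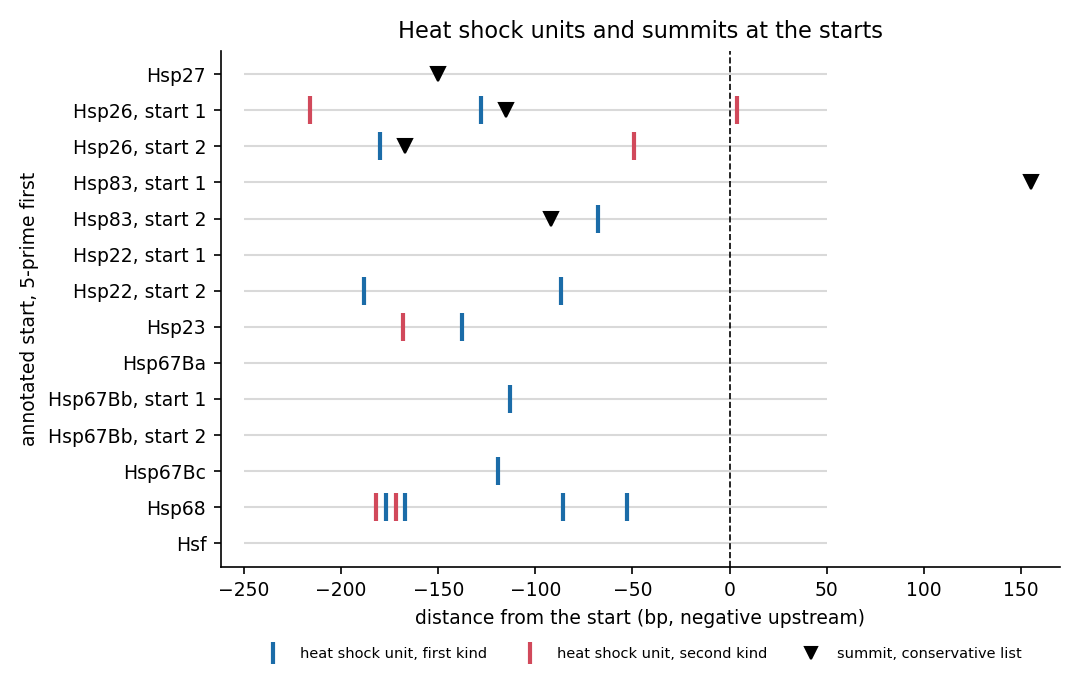
Matches to the heat shock unit pairs (ticks, with GAA first in blue and TTC first in red) and summits of the conservative list (triangles) by distance in bp from each annotated start of the 10 genes. Grey lines mark the window searched. Hsp68 has 6 ticks and no summit of that list, and Hsp27 has a summit 150 bp upstream and no tick.

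At the 3831 summits of the conservative list the same words were searched in a shorter window than at the starts. The shares at summits and at starts therefore cannot be compared. Within 50 bp of the summit GAANNTTC occurred in 2 of the 5 peaks, Hsp26 and the Hsp83 promoter, with 1 match each, against 2.53% of all 3831 summits. TTCNNGAA occurred in none of the 5 and in 2.48% of all summits. At the Hsp83 promoter the match began 24 bp downstream of the summit and 68 bp before the inner TSS. The Hsp27, Hsp22 and Hsp83 intron summits had no match to either word. Of the other words, TATAAA, the TATA box, occurred 2 times in the Hsp26 window and in 22.7% of all summits. No match within 50 bp of any of the 5 summits was found for GAGAG, the word of the GAGA factor, which 10.3% of all summits held. Likewise none was found for TATCGATA, the word of the DRE factor (0.783% of all summits), for the E-box words CACGTG (0.783%) or CAGCTG (2.77%), or for GGTCACAC (0.470%). Beyond that window, 6 matches to GAGAG began from 68 to 35 bp upstream of the outer Hsp26 start.

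Promoter words other than the heat shock units were spread over the 10 genes as follows. TATAAA occurred at a start of 8 of the 10 genes, all but Hsp67Ba and Hsf, against 51.2% of all genes, and for Hsp22, Hsp26, Hsp27, Hsp67Bc and Hsp68 a match lay 28 bp upstream of a start. GAGAG occurred at 4 of the 10 genes, all in the cluster, and at 36.3% of all genes. CAGCTG occurred at Hsp22 and Hsp67Bb, which share the start in question, and at 22.3% of all genes. TATCGATA occurred at the outer Hsp83 start and at 10.2% of all genes. Neither CACGTG nor GGTCACAC was found at any of the 10 genes, against 5.30% and 8.71% of all genes. The absence of a word says only that these letters are not in the window.

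In A and T the 5 summits were spread over the range of all summits. The Hsp83 promoter summit stood above 11.0% of them and the Hsp83 intron summit above 87.0%. Within 50 bp of the summit the share of A and T was 74.3% in the Hsp26 peak, 77.2% in the Hsp83 intron and 72.3% in the Hsp22 peak, above the median of 68.3% over all 3831 summits (quartiles 60.4% and 73.3%). The chromosome arms as a whole had 57.8%. The Hsp27 peak, with 64.4%, lay between these values. The Hsp83 promoter peak had the lowest share of the 5, with 52.5% of A and T. The 2 Hsp83 peaks thus differed by 24.8 percentage points. The median over summits within 250 bp of a TSS was 67.3%, close to the 68.3% of the others.

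**Figure D5:**
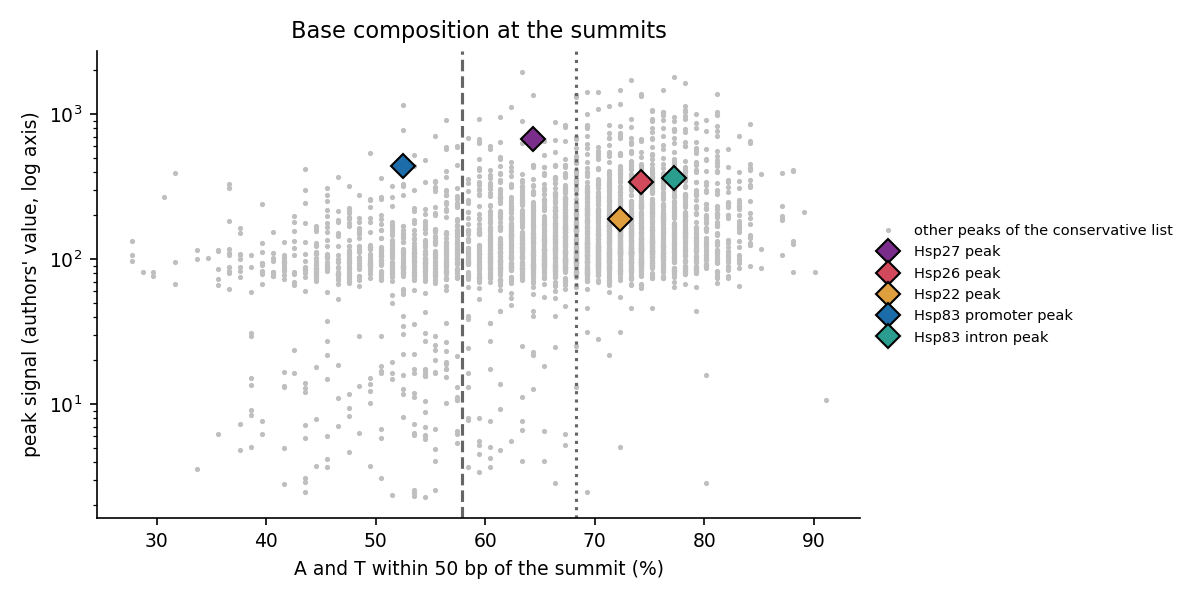
Share of A and T within 50 bp of the summit in percent (horizontal axis) and signal (log axis, the authors' value) of the peaks of the conservative list in grey, with the 5 peaks at heat shock genes as coloured diamonds. The dotted line is the median over summits, 68.3%, and the dashed line the chromosome arms, 57.8%. The Hsp83 promoter peak lies left of both lines and the Hsp83 intron peak right of both.

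Other chaperone genes were counted near the background rate. Of 34 such genes in the annotation, 10 (29.4%) had a summit in the body or 2 kb in the conservative list, against the 27.0% of all protein-coding genes given above. The strongest peak was at mrj, which encodes a DnaJ-type cochaperone (signal 550.2 in the conservative list, 259.5 in replicate 1 and 291.2 in replicate 2), with the summit in an intron. CG4461 was counted through the Hsp22 and Hsp26 peaks. Tpr2, a cochaperone with a J domain, had signals of 312.8, 142.0 and 163.2 in the same order, and stv, the BAG-domain partner of Hsp70 proteins, had 208.7, 118.2 and 94.0. Hsc70-5, a mitochondrial Hsp70, had 188.6, 131.1 and 66.4, with the summit 41 bp upstream of its start. Stip1, an adaptor between Hsp70 and Hsp90, had 136.8, 58.9 and 60.2 through a peak whose nearest start was that of Pi3K21B. The peaks of CG14207 (99.6 in the conservative list), Gp93 (94.5), Hsc70-4 (84.4) and Hsp60A (79.5) were each missing from the own list of at least 1 replicate. The 6 stress-induced Hsp70 genes and lncRNA:Hsromega, a long RNA made under heat shock, had no peak in any thresholded list. A ranked peak at the Hsromega start had an IDR of 0.000882 or less in all 4 ranked lists, and yet was in none of the thresholded ones. The Hsp70 genes are near-identical copies, and no source used here says how reads that fit several copies were placed.

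The peak most like that of Hsp27 was sought among genes with a summit within 250 bp of a start in the conservative list and an overlapping peak in both replicates. Likeness was the distance over the log10 signals of the conservative list, replicate 1 and replicate 2, so over 2 samples, for 882 genes outside the set. Pal1 and Pdrg1, which share 1 peak, were closest at a distance of 0.0175, with signals of 695.8, 362.7 and 321.8. CG5098 came next at 0.0248, with signals of 682.9, 376.1 and 302.5.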

How the data were processed

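stc-eGFP was profiled by ChIP-seq in 2 replicates of whole embryos, with DNA sheared by sonication to 200 to 800 bp. Peak lists on dm6 were deposited by the authors for each replicate and for the series, derived from the replicates' alignments and a control, per the files that accompany them. No source used here names the aligner, the peak caller, the read depth or the scaling of the signal. Each peak carries the signal that the authors deposited, and the deposited score, which rises as the IDR falls. The authors also deposited the −log10 of a q-value and of the IDR for each peak. Every peak of a thresholded list was at or under an IDR of 0.01 when checked, and was found in its ranked list. A few ranked peaks under that IDR, 96 for the conservative list, were not in the thresholded list. In the ranked lists of the series 4 columns of signals carry no sample name and were not used.

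Gene positions came from Ensembl BDGP6.54, release 115, and sequence from RefSeq Release 6, the assembly that dm6 names. All peaks on the arms ended within its chromosome lengths. Hsp67Bb was found through its synonym as CG4456. Summits were counted in the gene body and 2 kb on either side, with Python 3.11.15 and pandas 2.3.3, and the counting steps were tested on simulated data. The samples form 1 group, so no test between groups was possible. The genes, lists, words and windows were chosen with earlier results of these data known. Base composition, the starts by number of units and 2 alternatives were added after the data were seen. The rule for names took every member with its peaks in the 4 lists, the gene with the nearest start where that was not a member, up to 10 other chaperone genes by conservative signal, and the 3 genes most like the strongest member. Of 40 names in the chaperone list 34 genes were matched, 2 of them through synonyms. The alternatives were the larger list, each replicate alone, other windows, a stricter IDR, other overlaps and other word windows. The control experiment was not analysed here.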

Additional observations from a re-analysis of the deposited data

How the results depend on the processing

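The count of genes with a peak rests on the window. With the gene body alone, 3 of the 10 genes had a summit (Hsp22, Hsp67Bb and Hsp83), 2 of them clustered, from 3 peaks. Within 250 bp of a TSS there were also 3 (Hsp26, Hsp27 and Hsp83), 2 of them clustered, from 3 peaks. With those windows the other chaperone genes fell from 10 to 4 and 3, and the share of all protein-coding genes from 27.0% to 10.7% and 10.2%. At 500 bp 6 genes had a summit, beside 19.5% of all genes. There were 8 at 5 kb (38.8% of all genes), by any overlap (27.6%) and at an IDR of 0.001 or less (18.2%). That stricter IDR left 6 of the other chaperone genes. Among Hsp68, Hsp83 and Hsf the count was 2 in the larger list, and with each replicate alone it ran from 1 to 2. Over the replicates alone the count of the 10 genes ran from 8 to 9, that of clustered genes was 7 in each, that of peaks ran from 5 to 6, that of other chaperone genes from 7 to 9, and the share of all genes from 22.2% to 27.2%. All 5 peaks were in both replicates under each overlap rule tried and in the larger list. By current symbols only, without CG4456, 7 genes had a summit. Of the signals, whose scaling is not stated, 16 moved, all with 1 replicate alone. The 8 that did not are those of the larger list, which carries the same values. All 24 standings within a list moved by less than 1.5 times, but a standing near the top has little room for such a change. With replicate 1 alone the Hsp26 peak went from 90.3% to 76.5% and the Hsp22 peak from 72.6% to 54.0%. With replicate 2 alone they stood at 93.5% and 73.7%. The counts of signals and standings are by gene, and genes that share a peak repeat its values. In the wider word windows 4 of 9 counts at starts and 2 of 9 at summits moved. Depth is unknown, so a peak below the threshold says only that it was not called.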

Other observations

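Starts with exact matches to the heat shock element words had summits at a rate close to that of other starts over the whole annotation. This was looked at after the values at Hsp68 and Hsp27 had been seen. Of 19607 annotated starts of protein-coding genes, 3099 held at least 1 match to GAANNTTC or TTCNNGAA from 250 bp before to 50 bp after, and 250 of these (8.07%) had a summit of the conservative list within 250 bp. Of the 16508 starts without a match 1491 (9.03%) did. With 2 or more matches the share was 7.16% (26 of 363), and with 3 alternating units in a row it was 6.10% (5 of 82). Starts of 1 gene can share a summit, so they are not independent. The 8 starts with 4 or more matches had no summit in that window. Over all starts the share was 8.88%, so 8 starts are too few to tell this absence from that share. The 8 starts belong to Hsp68, to the stress-induced Hsp70Aa and Hsp70Ab, to Hsc70-4 with 2 starts, and to Idi, RanGAP and Send2, named after their values were seen. How reads were placed at the near-identical Hsp70 copies is not stated, so the lack of a summit there does not show a lack of contact.

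The peak at the start of lncRNA:Hsromega is in no thresholded list although its IDR would have let it pass. It spans chr3R:21296177-21296526, with the summit 225 bp inside the gene and a signal of 143.8, above the median of 126.2 of the conservative list. Its signal was 66.8 in the ranked list of replicate 1 and 75.5 in that of replicate 2, with IDRs of 0.000464 and 0.000882. A ranked peak 126 bp upstream of Hsp70Ba was likewise left out, with a signal of 92.6 and an IDR of 0.000249 in replicate 2. The ranked list of replicate 1 held 1 peak within 2 kb of that gene, 538 bp beyond its 3′ end, with a signal of 32.2 and an IDR of 0.276. No source used here names the step that left such peaks out. No ranked peak in the windows of the 10 heat shock genes was left out in this way.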
